A study of Mus musculus with 288 samples.

Results

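The cells described here are club cells, the non-ciliated secretory cells of the mouse airway, set apart by how much class I antigen-presentation message they held. Of 286 sorted wells, 227 had more than 2340 counts, which is 10 times the total of the fuller of 2 wells without a cell. Of these, 84 were taken as club cells because Scgb1a1, the club cell secretoglobin, made up at least 10% of the counts while Scgb3a1 and Sftpc, markers of other secretory and alveolar cells, each stayed under 1%. The score of a cell was the summed count of H2-K1, H2-D1 and B2m divided by its total. Ranked by the score and cut into 3 equal parts, the highest 28 cells are called class I-high, the lowest 28 class I-low and the other 28 the middle cells.

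All cells came from C57BL/6 mice aged 4 months with the genotype Scgb1a1-CreER;Rosa26-mTmG, in which a drug-inducible recombinase driven by the Scgb1a1 promoter switches the colour of a membrane reporter. The sort took Scgb1a1 lineage-positive epithelial cells that were low in CD24 and lacked CD45 and CD31, so the compared cells share strain, genotype, age and gate, and no label separates them. The lineage label marks descent and not present Scgb1a1 expression. No label names the mouse a cell came from, so the cells are 1 sample. No test across animals could be made, and each interval below is a 95% interval that covers counting error only.

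Class I molecules carry peptides made inside the cell to its surface, where cytotoxic T cells read them. H2-K1 and H2-D1 encode heavy chains and B2m encodes the light chain that both need to be stable. The proteasome cuts proteins to peptides, the TAP transporter moves these into the endoplasmic reticulum, and tapasin (Tapbp), calreticulin (Calr) and Pdia3 hold the empty molecule until a peptide fits. Interferons raise most genes of the pathway together, in airway epithelium as elsewhere, through interferon-stimulated response elements, and NF-kB acts at a separate element of the heavy chain promoters.

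Promoter sequence of the score genes is shown because interferon and NF-kB are known to act on class I genes through elements of this kind. The runs for H2-K1 (chr17:34000348-34000597, minus strand) and B2m (chr2:122147437-122147686, plus strand) are the 250 bases before the first RefSeq start site, build GRCm38.p6. Capitals mark the NF-kB site types GGGGATTCC and GAAAGTCCC and the interferon element letters GAAANNGAA and GAAGTGAAA, on either strand.
H2-K1: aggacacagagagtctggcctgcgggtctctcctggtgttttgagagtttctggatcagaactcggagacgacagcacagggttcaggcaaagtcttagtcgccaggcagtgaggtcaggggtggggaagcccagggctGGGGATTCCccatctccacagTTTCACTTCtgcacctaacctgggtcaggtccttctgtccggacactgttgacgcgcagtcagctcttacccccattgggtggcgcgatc
B2m: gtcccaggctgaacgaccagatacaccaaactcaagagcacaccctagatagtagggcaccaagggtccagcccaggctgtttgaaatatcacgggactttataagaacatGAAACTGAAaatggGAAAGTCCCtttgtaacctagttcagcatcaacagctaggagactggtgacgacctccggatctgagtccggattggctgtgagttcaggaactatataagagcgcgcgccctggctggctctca

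The 30 bases of H2-K1 (chr17:34000429-34000458, minus strand) and of H2-D1 (chr17:35262923-35262952, plus strand) that span both marked elements are set side by side because the heavy chains are nearly alike there. They are identical at 29 of 30 positions. An annotated GENCODE M21 transcript of H2-D1 starts upstream of this stretch, so its place before the start site holds for the RefSeq start.
H2-K1 site: GGGGATTCCccatctccacagTTTCACTTC
H2-D1 site: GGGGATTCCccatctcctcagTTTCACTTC

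Both strands were searched over the 250 bases, and shares are of 32817 RefSeq promoters of the same length. GGGGATTCC lay 103 to 111 bases before the start in H2-K1 and 163 to 171 in H2-D1, and 0.213% of promoters hold it. GAAGTGAAA lay on the other strand at 82 to 90 bases in H2-K1 and 142 to 150 in H2-D1, against 0.402% of promoters. B2m held a match to GAAANNGAA at 131 to 139 bases (7.12% of promoters) and GAAAGTCCC at 117 to 125 bases (0.289%). All 3 score genes thus held letters of both kinds, but only when GAAGTGAAA and GAAAGTCCC are counted, which were chosen after the sequences were seen. Of the forms set beforehand, the heavy chains held GGGGATTCC alone and B2m held GAAANNGAA alone. The windows of Tapbp, Calr and the proteasome genes Psmb8 and Psme1 held none of these forms. TGACG, a CRE site part, stood in the windows of H2-K1, H2-D1 and B2m but not in that of Tapbp, against 17.7% of all promoters, and CCAAT stood in all 4, against 33.8%. These are matches of letters and not measured sites.

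The score rested on few counts. A class I-high cell held 3 to 13 counts of the score genes (median 6), a middle cell 2 to 5 (median 3) and a class I-low cell 0 to 3 (median 1). Pooled over cells, this was 1046 CPM (counts scaled to a total of 1e+06) in the class I-high cells, 542 CPM in the middle cells and 243 CPM in the class I-low cells. The boundaries ran between cells that hardly differed. The last class I-high cell had 4 score counts of 5519 (725 CPM) and the first middle cell 4 of 6030 (663 CPM), while the last middle cell had 2 of 4490 (445 CPM) and the first class I-low cell 3 of 7063 (425 CPM). In 4 class I-low cells none of the 3 genes was counted. Neither control well held a count of them.

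**Figure D1:**
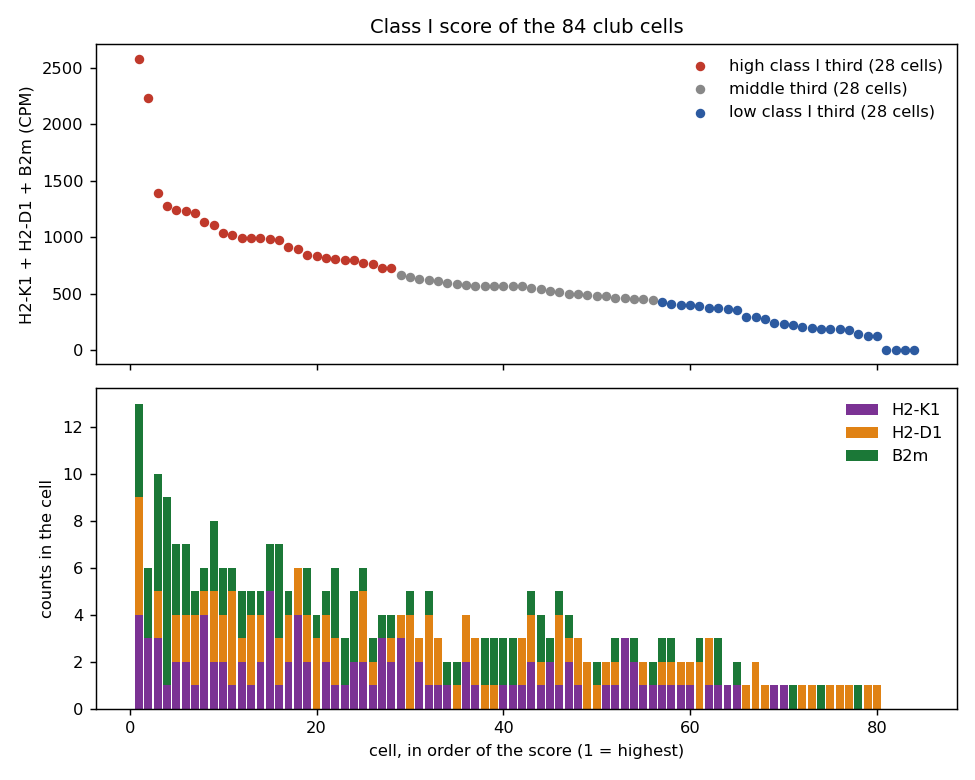
Class I score of the 84 club cells in order of the score (top, summed H2-K1, H2-D1 and B2m in CPM, coloured by group) and the counts of the 3 genes behind it (bottom, stacked bars). The score falls from 2584 and 2234 CPM in the highest cells to 1393 CPM in the next, and then in smaller steps to 0. It rests on at most 13 counts in a cell.

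These values chose the cells and are given as a description only. H2-K1 (chr17:33996017-34000347) summed to 58, 32 and 10 counts in the class I-high, middle and class I-low cells and was counted in 27, 22 and 10 of the 28 cells of each. H2-D1 (chr17:35262730-35267499) summed to 50, 35 and 19 counts, in 22, 21 and 16 cells. B2m (chr2:122147686-122153083) summed to 61, 22 and 9 counts, in 27, 17 and 8 cells. H2-D1 differed least between the groups, and 16 of the class I-low cells still held it. H2-K1 and H2-D1 are related genes with stretches in common: 6.94% of the 50-base windows in the longest H2-K1 transcript occur unchanged in that of H2-D1, so some reads could have been assigned to either.

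Cells of the other epithelial classes put the levels in place. The 74 kept wells in which Scgb3a1 reached 1% held 748 CPM of the score genes, between the class I-high and middle club cells. The 63 wells in which Sftpc reached 1% held 1176 CPM, above the pooled level of the class I-high cells. These wells differ from club cells in depth as well, with median totals of 6940.5 and 3529 counts.

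How far the score genes varied from cell to cell was read from the index of dispersion over the 84 cells, which is 1 when counts scatter around a shared level per total by counting alone. It was 1.06 for H2-K1, 0.931 for H2-D1 and 1.52 for B2m. Among 167 genes with 80 to 120 counts in these cells the median index was 1.21, with 23.4% of them below H2-K1, 8.38% below H2-D1 and 82.0% below B2m. Secretory and detoxification genes spread far more, with an index of 90.8 for Scgb1a1, 69.3 for the secretoglobin Scgb3a2 and 10.3 for the cytochrome Cyp2f2, all with far more counts. Of the pathway genes, Tapbp had an index of 1.33, the proteasome activator Psme1 1.28 and Calr 2.24. The summed score genes, which divided the cells, had an index of 1.53. The heavy chain indices thus lay near 1 and that of B2m above it. At 92 to 104 counts of a gene over 84 cells the index is a coarse measure. Whether the heavy chains spread between cells beyond counting error was not tested.

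Of the 3 genes, H2-K1 and B2m rose together to a degree, and H2-D1 hardly rose with either. Each gene had few counts in a cell, which weakens any correlation that can be seen. Spearman's correlation over the 84 cells, which share depth and the total in the denominator, was 0.30 between H2-K1 and B2m, 0.034 between H2-K1 and H2-D1 and 0.0018 between H2-D1 and B2m. The top and bottom 28 cells were also chosen by 1 gene alone, and the other genes were read in them. In all 25 cells held no H2-K1, 25 no H2-D1 and 32 no B2m, and cells at 0 were ordered by their total. With cells chosen by H2-K1, B2m summed to 44 counts in the top cells and 16 in the bottom cells, a ratio of pooled CPM of 2.77 (1.53 to 5.25), while H2-D1 stood at 36 and 32 counts, a ratio of 1.13 (0.683 to 1.88). With cells chosen by H2-D1, H2-K1 had a ratio of 1.12 (0.686 to 1.83) and B2m of 0.921 (0.555 to 1.53). With cells chosen by B2m, H2-K1 reached 1.65 (0.977 to 2.82) and H2-D1 1.04 (0.612 to 1.75). H2-K1 and B2m moved together in the first reading, and H2-D1 moved with neither beyond the interval.

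**Figure D2:**
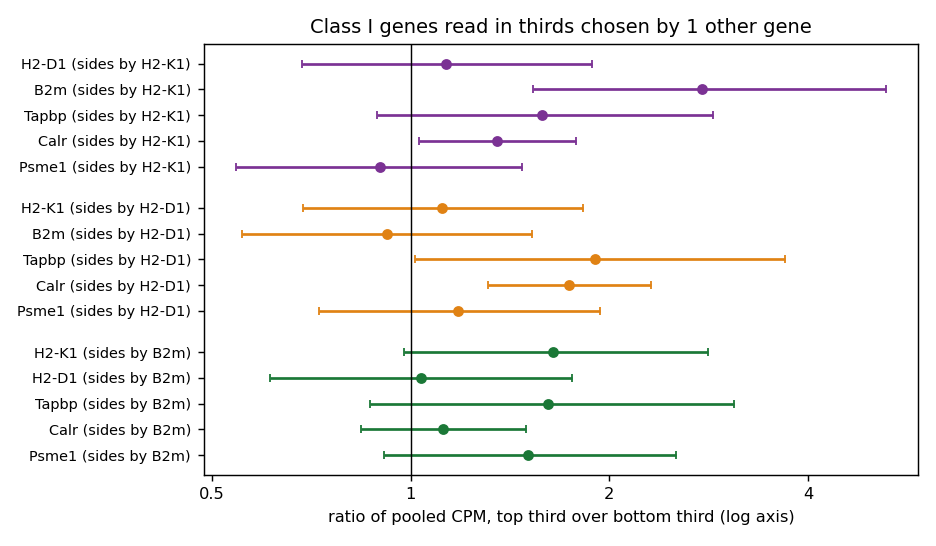
Ratio of pooled CPM, top over bottom 28 cells (log axis, 95% counting intervals), for class I genes read in cells chosen by 1 other score gene. Of the readings between score genes, the interval lies above 1 for B2m in cells chosen by H2-K1, at 2.77, while H2-D1 lies near 1 in both readings.

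Across genes, 1447 had at least 20 counts over the class I-high and class I-low cells together and are called measured. A gene was called higher or lower when its ratio of pooled CPM was at least 2-fold and the interval excluded 1, which is a rule of size and counting error. By it 58 genes were higher in the class I-high cells (4.01% of the measured genes) and 15 were lower (1.04%), 5.04% in either direction, without the score genes. The split depends on the scale: TMM factors gave 33 higher and 30 lower, and a total without Scgb1a1 gave 36 and 26. On both of these scales 27 of 34 called genes kept the call, and Krt18, Krt7, Lypd2, Cxcl17, Ltf, Gadd45b and Dnaja1 did not. The 34 were named by the rule, except Lypd2, which was added after its values were seen. The median log2 ratio of all measured genes was 0.14 on the main scale and 0.00 without Scgb1a1 in the total, and 885 of them had a ratio above 1. Of the 58 higher genes, 26 kept the call when the cell with most of their counts was left out and 32 did not, 12 of these with fewer than 20 counts left. Of the 58, 49 had a middle-cell level between those of the outer groups, as had 9 of the 15 lower genes. The outer groups chose these genes, so a level between them is no separate support.

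Of the genes of peptide loading, the immunoproteasome and interferon signalling, tapasin alone passed the rule. The constitutive proteasome is given separately below. The lists of other class I heavy chains, peptide transport and loading, the immunoproteasome, interferon receptors and signalling, and the interferon response together held 9 measured genes, of which 1 was higher and 0 were lower, against the background of 4.01% higher. Tapbp (chr17:33915899-33929292), which bridges the empty class I molecule to the peptide transporter, ran from 0 to 3 counts in a class I-high cell (median 2) and from 0 to 4 in a class I-low cell (median 0). It was counted in 21 of 28 class I-high, 11 middle and 12 class I-low cells, so the groups overlap cell by cell. Its level was 260 CPM (187 to 351) in the class I-high cells, 116 CPM in the middle cells and 102 CPM (58.4 to 166) in the class I-low cells, a ratio of 2.54 (1.40 to 4.85). After each cell was thinned to 2000 counts, 11 and 5 cells held it.

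The other loading genes stayed under 2-fold or within counting error. Calr, the calreticulin that holds freshly made heavy chains, had 133 and 83 counts in the class I-high and class I-low cells, a ratio of 1.55 (1.17 to 2.07), with cells of both groups ranging from 0 CPM to 3180 and 1216 CPM. Pdia3, the disulphide isomerase of the loading complex, had 19 and 8 counts, a ratio of 2.30 (0.962 to 6.08). Canx, the chaperone that folds heavy chains before B2m joins, had 32 counts in each group and a ratio of 0.969 (0.575 to 1.63). The transporter subunits Tap1 and Tap2 had 0 and 3 and 4 and 2 counts, and the tapasin-related Tapbpl 1 and 3, too few for a ratio to be read. The summed list stood at 234 against 149 counts.

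When the cells were chosen by single score genes, Tapbp fell under 2-fold in each reading. Its ratio was 1.58 (0.888 to 2.87) in cells chosen by H2-K1, 1.90 (1.02 to 3.70) by H2-D1 and 1.62 (0.868 to 3.09) by B2m. Calr had ratios of 1.35 (1.03 to 1.78) by H2-K1, 1.74 (1.31 to 2.31) by H2-D1 and 1.12 (0.840 to 1.5) by B2m. Tapbp and Calr thus lay above 1 in every reading, and the interval excluded 1 for Tapbp in cells chosen by H2-D1 and for Calr in cells chosen by H2-K1 or by H2-D1.

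The proteasome genes divided in the same uneven way. Psme1, a subunit of the interferon-inducible proteasome activator, had 41 and 22 counts, a ratio of 1.81 (1.05 to 3.18), and a ratio of 0.897 (0.544 to 1.47) in cells chosen by H2-K1. The immunoproteasome catalytic subunits Psmb8, Psmb9 and Psmb10 together with Psme2 were hardly counted, with 5 and 4, 1 and 1, 3 and 2, and 3 and 2 counts. Of the 13 measured subunits of the constitutive core, 1 was higher and 0 were lower, and their median log2 ratio was 0.18, near the 0.14 of all measured genes. That 1 was Psma5 (chr3:108256926-108279974), an alpha-ring subunit, with 33 and 12 counts, a ratio of 2.66 (1.34 to 5.67) and only 6 counts in the middle cells, below both outer groups.

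Other class I and class II genes were at the limit of detection. Of 18 other heavy chain genes, 10 had no count in either group, and all 18 summed to 11 counts in the class I-high and 7 in the class I-low cells. The 11 class II genes summed to 12 and 3 counts, of which the invariant chain Cd74 gave 11 and 3. Wells in which Sftpc reached 1% held 2530 CPM of the class II genes.

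No measured interferon gene was called higher or lower. Of the 20 genes for interferon receptors and signalling, the 2 measured were Stat3, a transcription factor of cytokine signalling, with 22 and 32 counts (ratio 0.666, 0.369 to 1.18), and its feedback inhibitor Socs3, with 24 and 38 counts (ratio 0.612, 0.351 to 1.05). Of 49 interferon response genes, 20 had no count in either group and 2 were measured. Ifitm3, which restricts virus entry, had 21 and 19 counts (ratio 1.07, 0.548 to 2.11) and its relative Ifitm2 7 and 13 (ratio 0.522, 0.176 to 1.41). The receptor and signalling list summed to 109 against 116 counts and the response list to 104 against 75, a ratio of sums of 1.34 (0.989 to 1.83). Among genes under 20 counts, chosen here after their values were seen, Irf1, a factor that switches on class I genes, and the exonuclease gene Isg20 each had 14 and 5 counts (ratio 2.71, 0.923 to 9.62), and Ifitm1 had 6 and 0.

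**Figure D3:**
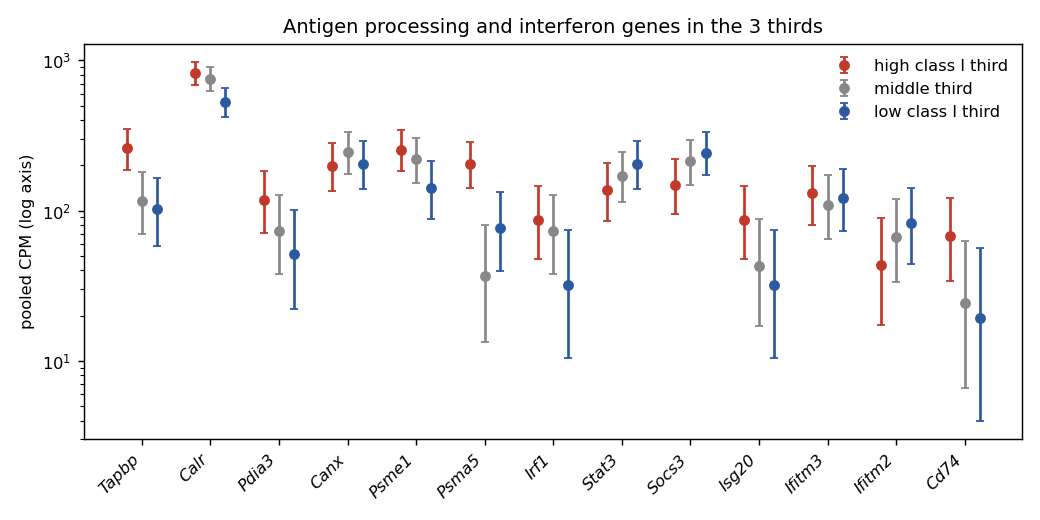
Pooled CPM (log axis, 95% Poisson intervals) of antigen-processing and interferon genes in the class I-high, middle and class I-low cells, including genes with too few counts for a call. Tapbp lies at 260 CPM in the class I-high cells and at 116 and 102 CPM in the others, while Canx, Ifitm3 and Stat3 overlap throughout.

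Club cell markers stayed under 2-fold. Of 11 measured ones outside the rule, none was called higher or lower, with a median log2 ratio of 0.06. Cyp2f2, the cytochrome that activates inhaled toxicants, had 3441 and 3217 counts (ratio 1.04, 0.987 to 1.09), and the carbonyl reductase Cbr2 had 4661 and 4337 (ratio 1.04, 0.999 to 1.09). Scgb3a2, a secretoglobin of small airways, was the club gene that differed most, with 3740 and 2226 counts, a ratio of 1.63 (1.54 to 1.72). Its cells overlapped widely, from 398 to 58234 CPM in the class I-high and from 0 to 52443 CPM in the class I-low cells, and its log2 ratio was 0.48, 1.29 and -0.47 within the 3 successive sets of 96 columns of the table. Scgb1a1, which the rule used, made up 28.8% of the pooled counts in the class I-high, 31.7% in the middle and 35.1% in the class I-low cells, and Spearman's correlation between its share and the score was -0.29.

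All 8 measured members of the antimicrobial and complement list had a ratio above 1, with 2 called higher and a median log2 ratio of 0.53, against 0.14 over all measured genes. Lcn2, a siderophore-binding lipocalin, had 25 and 6 counts, a ratio of 4.04 (1.62 to 12.0), but 13 of the 25 lay in 1 cell and the ratio was 2.01 and no longer called without it. Ltf, the iron-binding lactoferrin, had 15 and 5 counts (ratio 2.91, 1.00 to 10.2) and 15 in the middle cells. Wfdc2, a secreted protease inhibitor found in every cell of both groups, had 1509 and 1136 counts (ratio 1.29, 1.19 to 1.39), Retnla, a resistin-like secreted protein, 302 and 199 (ratio 1.47, 1.23 to 1.77), and the chitinase-like Chil1 110 and 62 (ratio 1.72, 1.25 to 2.39). Within the 3 sets of columns Wfdc2 stayed above 1, while the log2 ratio of Retnla was -0.48, 1.69 and 0.51 and that of Chil1 0.51, 1.59 and -0.97. Of the NF-kB and chemokine list, 5 genes were measured and 1 was higher. This was Cxcl17, a mucosal chemokine, with 89 and 43 counts (ratio 2.01, 1.38 to 2.96), while the NF-kB inhibitor gene Nfkbia stood at 60 and 48 counts (ratio 1.21, 0.815 to 1.81).

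Keratins and other genes of the transitional epithelium list gave the most calls of any list, with 4 higher and 1 lower of 14 measured and a median log2 ratio of 0.67, against 4.01% higher and 1.04% lower over all genes. Krt18, a keratin of simple epithelia, ran from 0 to 9 counts in a class I-high cell (median 4) and from 0 to 6 in a class I-low cell (median 1). It summed to 112, 86 and 52 counts in the class I-high, middle and class I-low cells, a ratio of 2.09 (1.49 to 2.96). Krt7 summed to 36, 27 and 16 counts (ratio 2.18, 1.18 to 4.21). Their partner keratins Krt8 and Krt19 stayed under 2-fold, at 1.37 (1.06 to 1.79) and 1.48 (1.05 to 2.10). Krt18 and Krt7 kept the call without their fullest cell, and both were above 1 in each of the 3 sets of columns. Their calls ended with a total without Scgb1a1, at log2 ratios of 0.93 and 0.99, and with the top and bottom 42 cells, at 0.24 and 0.89. Both calls also ended when the groups were taken within each set of columns, at log2 ratios of 0.75 and 0.63. The same held without the third set, at 0.84 and 0.93. That set gave 7 class I-high and 3 class I-low cells, with 31 and 2 counts of Krt18. Over 26 alternatives Krt18 kept the call in 15 and Krt7 in 13, among them no count minimum and 1.5-fold, which cannot end a call. Lgals3, a galactose-binding lectin, had 23 and 8 counts (ratio 2.79, 1.20 to 7.2), and S100a6, a calcium-binding protein, 31 and 3 (ratio 10.0, 3.12 to 51.2), of which 1 cell held 15 and without which the ratio was 5.33 (1.53 to 28.6) on too few counts for a call. Cyr61, a secreted matricellular protein, was lower, with 6 and 18 counts (ratio 0.323, 0.105 to 0.849), 10 of the 18 in 1 cell, and 32 counts in the middle cells. Without that cell its ratio was 0.702 (0.201 to 2.31), no longer called. Clu, a secreted chaperone, had 128 and 72 counts (ratio 1.72, 1.28 to 2.33).

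The same list was high in cells of another kind. Wells in which Scgb3a1 reached 1% held 9813 CPM of the transitional list, above the 5556 CPM of the class I-high and the 3551 CPM of the class I-low cells. Scgb3a1 itself, kept under 1% by the rule, gave 76 counts in the class I-high cells and 13 in the class I-low cells, and 63 of the 76 lay in 1 cell, where they made up 0.876% of the total. Without that cell its ratio was 1.01. Leaving this cell out left 55 genes higher and 16 lower, and taking the groups again from the 81 cells with Scgb3a1 under 0.1% gave 55 and 17.

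That single cell carried several of the largest ratios. It held 20 of the 31 Muc5b counts of the class I-high cells, 22 of the 32 Cyp2a5 counts, 10 of the 19 Klf4 counts and 7 of the 23 Lgals3 counts. Muc5b, a gel-forming mucin and the 1 measured member of the goblet list, had 31 counts against 1, a ratio of 30.0 (5.01 to 1224), and it was counted in 6, 4 and 1 cells. Cyp2a5, an airway cytochrome, had 32 counts against 1, a ratio of 31.0 (5.18 to 1262), in 6, 1 and 1 cells. Without this cell the log2 ratios were 3.48 for Muc5b, 3.34 for Cyp2a5, 1.61 for Klf4 and 1.02 for Lgals3, and none of the 4 was called, Muc5b, Cyp2a5 and Klf4 with fewer than 20 counts left. In wells in which Scgb3a1 reached 1%, Muc5b stood at 2375 CPM and Cyp2a5 at 659 CPM.

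Of the 24 measured genes of xenobiotic metabolism, 2 were higher and 0 lower, with a median log2 ratio of 0.23. Beside Cyp2a5 this was Aldh3a1, an aldehyde dehydrogenase, with 34 and 12 counts, in 14 and 10 cells, a ratio of 2.75 (1.39 to 5.82) and of 2.20 without its fullest cell. In wells in which Scgb3a1 reached 1%, Aldh3a1 stood at 608 CPM, against 210 CPM in the class I-high club cells.

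In the other groups single genes passed the rule. The immediate early list had 2 higher and 0 lower of 19 measured, with Klf4, a zinc finger factor, at 19 and 3 counts (ratio 6.14, 1.81 to 32.4) and the stress gene Gadd45b at 46 and 22 (ratio 2.03, 1.19 to 3.54), whose log2 ratio was -1.09 in the first set of columns and 2.84 in the third set. Dnaja1, a heat shock co-chaperone, had 24 and 10 counts (ratio 2.33, 1.07 to 5.45), 1 of 8 measured. Itgb1, the beta-1 integrin, had 28 and 11 counts (ratio 2.47, 1.19 to 5.49), 1 of 6 measured sort gate and surface genes. Hes1, a target of Notch signalling, which favours secretory over ciliated fate in the airway, had 38 and 72 counts. Its ratio was 0.511 (0.336 to 0.768), just short of 2-fold on the main scale. TMM factors and a total without Scgb1a1 lower the ratio of every gene, which takes Hes1 past 2-fold. The median of Hes1 was 1 count in a class I-high and 2 in a class I-low cell, and its log2 ratio was below 0 in all 3 sets, at -0.51, -1.46 and -0.53. The lysosomal sterol carrier Npc2 had 239 and 338 counts (ratio 0.685, 0.578 to 0.811), also below 1 in all 3 sets. The Notch list summed to 94 against 125 counts, a ratio of sums of 0.729 (0.552 to 0.960), with 0 of its 3 measured genes called. Hes1 gave 38 and 72 of these counts, so the gap between the sums lies in this 1 gene and not across the list. The sort gate and surface list summed to 227 against 168, a ratio of sums of 1.31 (1.07 to 1.61).

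Of the 16 list genes called higher, Tapbp, Psma5, Aldh3a1, Krt18 and Krt7 kept the call without their fullest cell and the other 11 did not. No gene was called among 32 measured ribosomal protein genes (median log2 ratio 0.05), 23 of oxidative phosphorylation (0.19), 13 of the unfolded protein response and secretion (0.04), 13 antioxidant genes (0.06), 12 lysosomal genes (0.15) and 9 lung transcription factors (-0.05). Their medians lay close to the 0.14 of all measured genes.

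Outside the lists, genes were named by a rule of size and direction. Direction was read only in sets of columns with at least 10 counts of the gene. That was 1 set for Hist1h2bc, Mia3 and Gdpd2, and for the lower genes Kif3a and Nudc given below. It was 0 sets for Ccdc36, so direction is little or no check for these genes. AU021092, an uncharacterized gene, had 40 and 12 counts in 21 and 8 cells (ratio 3.23, 1.66 to 6.76), and the phosphatase subunit Ppp1ca had 39 and 12 in 19 and 11 cells (ratio 3.15, 1.62 to 6.61). Both kept the call without their fullest cell, and each was above 1 in all 3 sets of columns. Vmp1, an autophagy membrane protein, had 39 and 14 counts (ratio 2.70), Mpc1, a mitochondrial pyruvate carrier, 24 and 7 (ratio 3.32), the histone gene Hist1h2bc 26 and 7 (ratio 3.60), Mia3, which helps large cargo leave the endoplasmic reticulum, 18 and 4 (ratio 4.36), and the phosphodiesterase-domain gene Gdpd2 17 and 4 (ratio 4.12). Of these 5, Gdpd2 alone lost the call without its fullest cell, with fewer than 20 counts left. Hist1h2bc shares near-identical copies in its cluster, so its counts are uncertain. Its counts were 6 and 3, 4 and 4, and 16 and 0 in the 3 sets of columns. Lypd2 and Chia1 were added after their values were seen. Lypd2, a surface protein of the Ly6 family, had 103 and 47 counts (ratio 2.12, 1.49 to 3.07), in 24, 19 and 11 cells, and 1.90, no longer called, without the cell that held most Muc5b. Chia1, an acidic chitinase, owed 45 of its 52 class I-high counts to 1 cell.

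**Figure D4:**
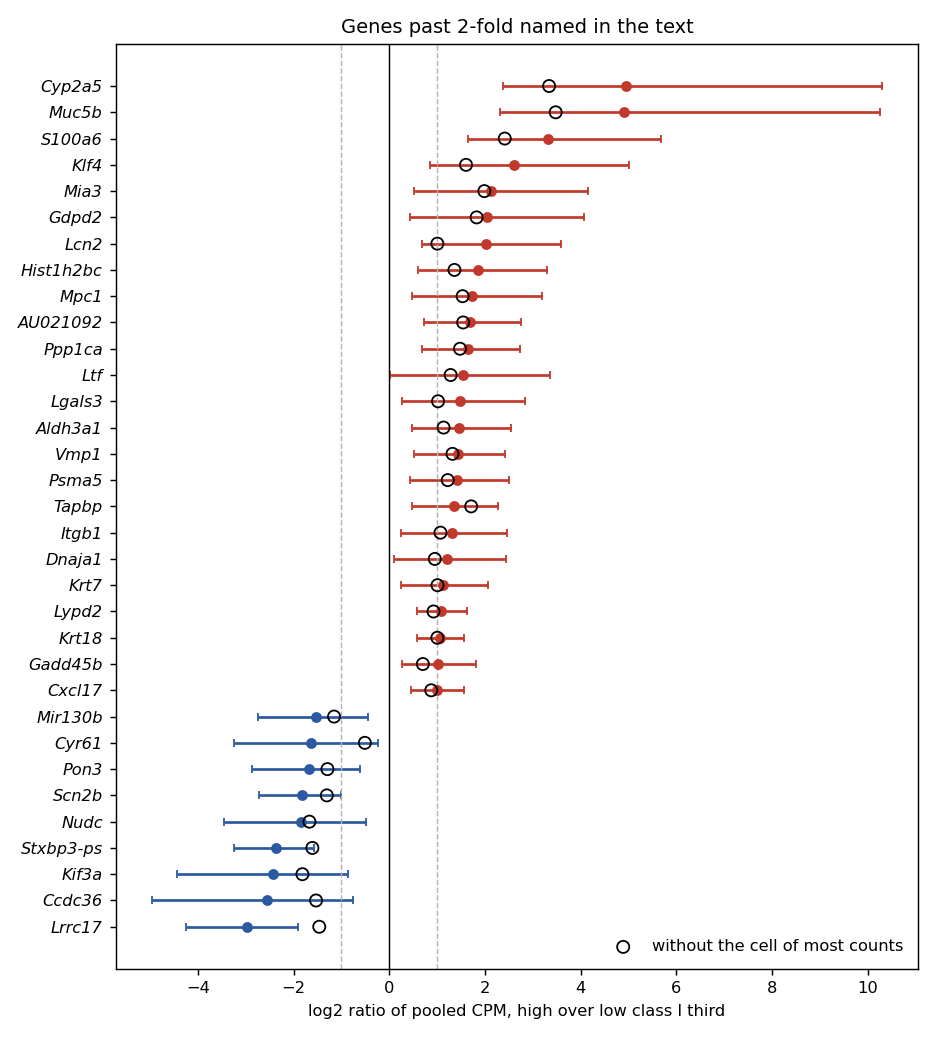
Log2 ratio of pooled CPM, class I-high over class I-low cells, of the genes past 2-fold named here, with 95% counting intervals (filled points, red higher and blue lower). Open circles leave out the cell with most counts of the gene, which moves Muc5b from 4.91 to 3.48 and Tapbp from 1.35 to 1.71.

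The genes lower in the class I-high cells were few and included 3 that were counted in a well without a cell. Stxbp3-ps, a pseudogene, had 16 counts in the class I-high, 64 in the middle and 80 in the class I-low cells, a ratio of 0.194 (0.106 to 0.334), with 34 of the 80 in 1 cell. Scn2b, a sodium channel subunit, had 16, 56 and 55 counts (ratio 0.282, 0.151 to 0.499), and Mir130b, a microRNA locus, 10, 26 and 28 (ratio 0.346, 0.150 to 0.734). The second control well held 65, 41 and 7 counts of these 3 genes among its 234. Cells with 3 or more counts of Stxbp3-ps and Scn2b together numbered 4 of 28 class I-high, 13 middle and 11 class I-low cells, and without them the log2 ratios were -0.75, -0.09 and -0.77, none called. Those cells were picked by counts of the first 2 genes. Whether this content moved other ratios was not tested beyond leaving the cells out, which left 41 genes higher and 14 lower, with Tapbp still called higher.

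Of the other lower genes, Lrrc17, a secreted leucine-rich repeat protein, had 8 and 61 counts (ratio 0.127, 0.0525 to 0.267), 40 of the 61 in 1 cell. Without that cell its ratio was 0.363, still called. The kinesin subunit Kif3a had 4 and 21 counts (ratio 0.185, 0.0461 to 0.547) and the meiosis gene Ccdc36 3 and 17 (ratio 0.171, 0.0321 to 0.591), and both lost the call without their fullest cell, with fewer than 20 counts left. The highest level in a cell was the same for both, 396 CPM in the class I-high and 1395 CPM in the class I-low cells. Whether their counts are separate signals was not tested. Pon3, a lactonase, had 10 and 31 counts in 7 and 14 cells (ratio 0.313, 0.137 to 0.654), and Nudc, a dynein-associated chaperone, 6 and 21 in 4 and 15 cells (ratio 0.277, 0.0914 to 0.709). These 2 spread over more cells, and both kept the call without the fullest one. The Pon3 difference lay in the first set of columns, with 2 and 22 counts, against 7 and 8 in the second and 1 and 1 in the third. Nudc had 31 counts in the middle cells, more than in the class I-low cells, 14 of them in 1 cell.

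**Figure D5:**
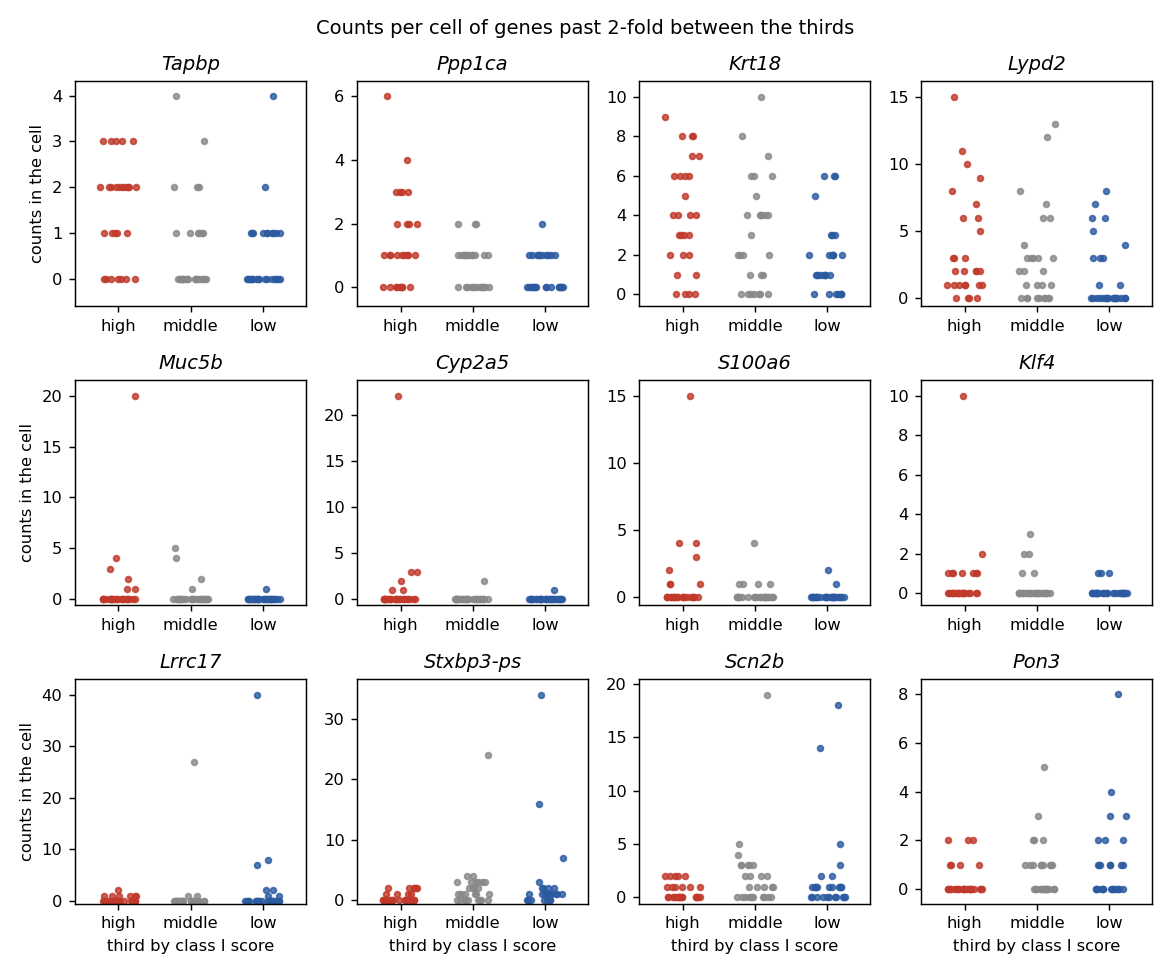
Counts in each of the 28 class I-high, middle and class I-low cells for 12 genes past 2-fold, each point 1 cell. Tapbp, Ppp1ca and Krt18 are spread over many cells with at most 10 counts, whereas single cells hold 22 counts of Cyp2a5, 15 of S100a6 and 40 of Lrrc17.

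Depth and RNA quality were close between the groups. The median total was 5672 counts (range 2686 to 7816) in the class I-high, 5309 (3373 to 9718) in the middle and 5334 (2771 to 8152) in the class I-low cells, and the median number of genes was 1582, 1509 and 1436. Spearman's correlation between score and total was 0.11. The ribosomal RNA gene Rn45s made up 9.35%, 8.37% and 9.12% of the pooled counts. The 3 sets of columns contributed 10, 11 and 7 class I-high and 14, 11 and 3 class I-low cells; they are table order and no label calls them plates. Markers of other cell types were at or near 0: the immune list of 20 genes summed to 1 and 2 counts with 17 genes at 0, the 10 endothelial genes to 8 and 4 with 7 at 0, the 12 mesenchymal genes to 4 and 2 with 9 at 0, and the 5 erythroid genes to 2 and 2 with 3 at 0. Sftpc gave 35 and 37 counts. The ciliated list summed to 63, 137 and 83 counts in the 3 groups, and 0, 2 and 1 cells held 3 or more counts of Foxj1, Tppp3 and Ccdc153.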

How the data were processed

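RNA from single sorted cells was measured in 286 wells and 2 control wells. The labels' protocols describe spike-in RNA, fragmentation, poly(A) priming with a molecular barcode, template switching and PCR. The submitters' processing notes name STAR and mm10. For the annotation, the counting tool, the use of strand and the collapsing of barcodes, what was done is not given in the sources used. If they were not collapsed, PCR copies were counted separately and the intervals are too narrow. The authors deposited raw whole-number counts, 1 row per gene symbol and 1 column per well. Each well is its own column, so no barcode is shared between libraries, and doublets were not called.

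The cells were chosen as described above; at equal score the cell of larger total counted as the lower one. A ratio is the summed count over the summed total of 1 group divided by that of the other, with an exact conditional binomial interval at 95%. A group at 0 was given 3 counts, which makes the ratio a bound, and no ratio was taken where the other group held no more than that. CPM intervals are exact Poisson. The index of dispersion is Pearson's chi-square over its degrees of freedom. Thinning drew 2000 counts per cell without replacement. The ratio was tested on simulated pooled counts that scatter by counting alone. They hold no spread between cells, so the interval was not tested for genes that vary more. Of 24781 symbols, 24241 matched GENCODE M21 (GRCm38), the source of gene coordinates, and promoters are RefSeq's.

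The text names every measured list member called higher or lower and otherwise up to 4 members with most counts. Outside the 35 lists it names up to 8 genes called in each direction whose interval lay farthest from 1, with the same direction in every set of 96 columns with at least 10 counts. Some genes that the rule names are not reported here. The members and lists were chosen with earlier results of these data known. Alternatives covered scaling, pooling, the count minimum, the fold, how the groups are taken, depth, the score, sets of columns and doubted cells. Python 3.11.15, numpy 2.4.6, pandas 2.3.3, scipy 1.17.1, matplotlib 3.10.9 and R 4.3.3 with edgeR 4.0.16 (TMM factors only) were used.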

Additional observations from a re-analysis of the deposited data

How the results depend on the processing

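No paired analysis was possible because no result comes from a test and no label pairs the cells. The 26 alternatives, 3 of them added after the data were seen, moved the counts of called genes more than their directions. The 58 higher genes became 33 with TMM factors, 126 with no count minimum, 88 at 1.5-fold, 10 after thinning to 2000 counts, 34 with a score from H2-K1 alone, 36 with a total without Scgb1a1 and 31 without the cell of most counts. They became 35 and 36 without the second and without the third set of columns and 14, 23 and 24 within the 3 sets, where fewer cells and genes remain. The 15 lower genes became 30 with TMM factors, 44 with no count minimum, 40 with 42 cells a side, 30 with a score from H2-D1 alone, 26 with a total without Scgb1a1, 9 without the first set and 9 and 6 within the first and within the third set. The 1 pathway or interferon gene called higher became 3 at 1.5-fold, 2 with wells of more than 4000 counts, 2 without the first set, 2 without the second set, and 0 after thinning, with a score from H2-K1, H2-D1 or B2m alone, and within the third set. Beyond fewer cells or genes, the cause was not tested.

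Of 869 log2 ratios of 34 named genes, 772 stayed within their counting interval, 79 moved beyond it and 18 changed sign. The alternatives of no count minimum and of 1.5-fold leave every ratio as it was, so their ratios stayed by construction. No ratio was taken where 1 group was at 0 and the other held at most 3 counts or gave a bound past 1. The ratios that changed sign within the third set were Lypd2 (-0.75), Aldh3a1 (-0.33) and Klf4 (-1.33), and within the first set Gadd45b (-1.09) and Lrrc17 (0.76). After thinning they were Aldh3a1 (-0.22), Kif3a (0.42), Pon3 (0.32) and Nudc (1.00). With a score from B2m alone they were Ltf (-0.65) and Itgb1 (-0.073), and with H2-D1 alone Gadd45b (-0.12), Hist1h2bc (-0.26) and Mia3 (-0.41). With H2-K1 alone they were Lrrc17 (2.86), Ccdc36 (0.0085), Nudc (0.0085) and Mir130b (0.28). Tapbp kept its call in 19 of 26 alternatives, among them no count minimum and 1.5-fold, which cannot end a call. Of 523 list medians, 515 moved by less than the typical counting error of 1 gene of the list, a wide yardstick for a median. The 1.5-fold alternative cannot move a median. At a median of 3 score counts in a middle cell, depth limits how well a cell can be placed in a group.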
